A study of Homo sapiens with 9 samples.

Results

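ATF4 and DDIT3, whose protein is CHOP, are transcription factors of the integrated stress response. They were followed here with 8 other regulators and effectors of that response, namely ATF3, CEBPB, CEBPG, NUPR1, TRIB3, CHAC1, SESN2 and DDIT4. The 10 genes were read by 21 probe sets, of 18132 genes and 49395 probe sets on the array. They were chosen from a list of known pathway genes with earlier results of the same arrays in view, in which several of them had low values after biomineralized insulin. Their own values and differences are therefore given as a description, with no p-value. Counts of those past the threshold of the fit over all genes stand beside the share of all genes that passed it, and nothing is read from them. Messenger RNA was measured on 9 one-colour Affymetrix arrays in R-HepG2 cells. HepG2 is a line from a human hepatoma, and the R marks a variant made resistant to insulin. After a night without serum, cells were given biomineralized insulin (BI, 3 arrays), insulin (3 arrays) or DMEM, the plain culture medium (3 arrays), for 4 h. Both insulin preparations were used at 40 ug/ml, and the mineral was not given to any group on its own.

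The cell line tag reads HepG2 for the treated samples and R-HepG2 for the medium samples, while the protocols describe R-HepG2 for all of them, so a difference from medium could also hold a difference between forms of the line. Whether the 3 arrays of a group stem from separate cultures is not stated in the sources used here. The spread behind every p-value is that between these samples and may be technical. Of 9 measured hepatocyte markers, 3 (APOA1, TTR and TF) lay above the brightness filter of 4.74 log2 used below. Albumin (ALB) and alpha-fetoprotein (AFP), which define hepatocytes and hepatoma cells, had group means of 3.41, 3.49 and 3.28 and of 2.93, 2.87 and 3.00 with BI, insulin and medium. The array data thus do not show the labelled liver character at these 2 genes. Of 5 lung epithelium markers 3 lay above the filter, and the summed linear signal of the list was 225, 191 and 179 with BI, insulin and medium. Of 5 fibroblast markers 4 did, with sums of 558, 508 and 488. Squamous (2 of 3; 63.4, 65.2 and 58.9), endothelial (3 of 3; 119.6, 120.1 and 114) and leukocyte markers (2 of 4; 219, 209.6 and 204) varied less. Of all 18132 genes, 12240 had a probe set above this filter, so nothing is read from the marker counts. The brightest gene weighs most in such a sum. In the lung list it was NKX2-1, at 6.73, 6.36 and 6.14 log2 with BI, insulin and medium. In the fibroblast list it was DCN, at 8.29, 8.05 and 7.97. The part of these markers in the results was not tested. Array medians lay between 5.46 and 5.50 log2. In a bulk sample, fewer cells of a type and less RNA per cell cannot be told apart.

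In the integrated stress response, kinases that sense amino acid shortage, misfolded protein in the endoplasmic reticulum, viral RNA or lack of haem phosphorylate the translation factor eIF2. Most protein synthesis then slows, while the messenger RNA of ATF4 is translated more, and ATF4 protein switches on genes for amino acid supply together with ATF3, CHOP and TRIB3. In liver cells this pathway is known for its links to nutrient supply and to insulin signalling, since TRIB3 protein can bind the insulin effector kinase AKT. Arrays read messenger RNA only, so eIF2 phosphorylation and the translation of ATF4 were not measured.

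ATF4 binds a composite C/EBP-ATF element. RefSeq promoter windows (250 bases before to 50 after the start site, GRCh38.p14) were found for 9 of the 10 genes, all but NUPR1. Only the first listed window of a gene was searched, so any other start site of that gene was not covered. The element was searched as TGATGNAAN on both strands and was present in 2 of these 9 windows (22.2%), against 1.83% of the 9981 windows of all tested genes. Among other ATF4-dependent genes it was present in 10 of 33 windows (30.3%). The palindromic cyclic AMP element TGACGTCA, which does not contain the first motif, was in none of the 9 windows and in 3.26% of those of the tested genes. A match is a run of letters and not a shown binding site. The windows that hold a match, both on the plus strand, are at chr1:212565157-212565456 for ATF3 and chr15:40953221-40953520 for CHAC1, and are shown because both genes are members of the group with large differences. Capitals mark the match, which reads as searched in ATF3, 191 bases before the start site, and as its reverse complement in CHAC1, 210 bases before it.
ATF3: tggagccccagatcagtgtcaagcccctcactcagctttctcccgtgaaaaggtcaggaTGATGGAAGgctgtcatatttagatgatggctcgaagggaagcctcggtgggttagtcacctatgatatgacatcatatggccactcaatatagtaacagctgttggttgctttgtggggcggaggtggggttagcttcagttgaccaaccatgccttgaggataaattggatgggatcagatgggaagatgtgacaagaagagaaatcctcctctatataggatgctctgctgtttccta
CHAC1: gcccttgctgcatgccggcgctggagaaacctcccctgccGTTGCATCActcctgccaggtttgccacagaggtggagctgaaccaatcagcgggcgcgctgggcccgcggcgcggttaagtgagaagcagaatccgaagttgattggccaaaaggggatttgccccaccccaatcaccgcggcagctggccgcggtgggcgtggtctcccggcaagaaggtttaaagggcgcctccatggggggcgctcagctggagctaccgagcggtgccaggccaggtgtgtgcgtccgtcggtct

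The first comparison, BI against medium, asks how these genes differed after the biomineralized preparation. All 10 had lower values on every BI array than on any medium array. By the brightest probe set of each gene, a set of 7 had large differences, between -3.02 and -2.05 log2. A set of 3 had small ones, between -0.87 and -0.45. With the mean of a gene's probe sets the gap was narrower, with ATF3 at -1.40, CHAC1 at -1.62 and CEBPG at -1.96. ATF3, DDIT3, TRIB3, NUPR1, SESN2, CHAC1 and CEBPG made up the first set, and were left with 12.4% to 24.1% of their medium signal. ATF4, CEBPB and DDIT4 made up the second, with 54.9% to 73.4%. Values are log2 expression values as deposited, so that a difference of -1 is a halving of the signal, and they compare a gene with itself between groups, not 1 gene with another.

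**Figure D1:**
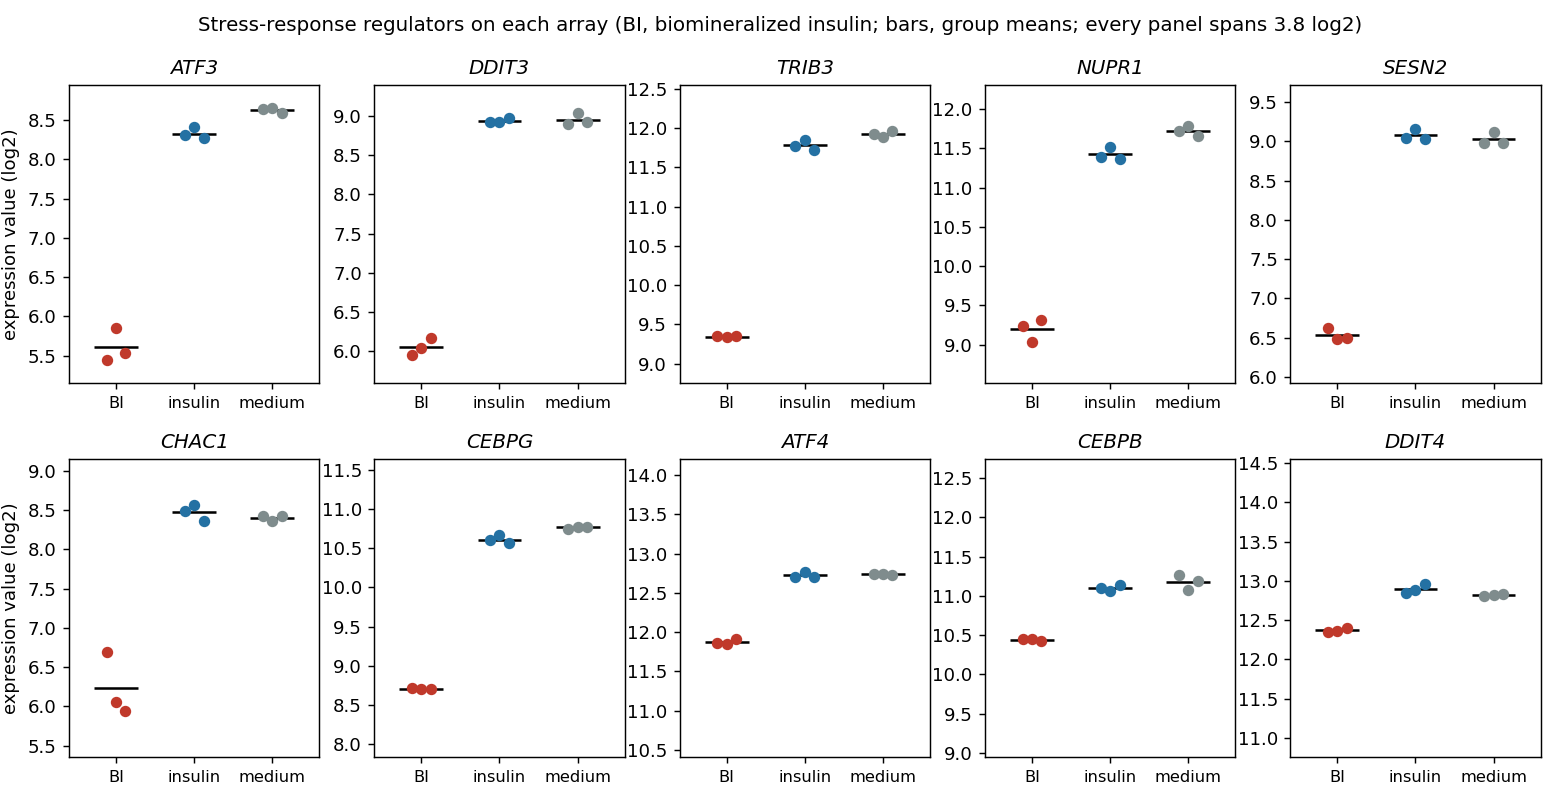
Log2 expression value (vertical axis, every panel spanning the same range) of the 10 genes on each array (points) with group means (bars), for biomineralized insulin (BI), insulin and medium. In each panel the 3 BI points lie below the other 6. The group means of BI and medium are farthest apart in ATF3 (5.61 with BI against 8.63 in medium) and nearest in DDIT4 (12.37 against 12.82).

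Among the transcription factors, ATF4 itself, the central activator, was at 11.86, 11.85 and 11.91 log2 on the BI arrays, at 12.71, 12.77 and 12.70 with insulin and at 12.74, 12.74 and 12.73 in medium. The BI arrays stood below all others, and the insulin and medium arrays overlapped. The difference of BI from medium was -0.87 ± 0.03 log2 (SE, 3 arrays against 3), a 1.82-fold lower signal.

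ATF3, a stress-induced member of the ATF and CREB family that can act as a repressor, was at 5.44, 5.86 and 5.53 log2 on the BI arrays. With insulin it was at 8.31, 8.41 and 8.27, and in medium at 8.64, 8.65 and 8.59. All 3 groups were apart, with insulin arrays slightly below medium arrays. In this brightest probe set ATF3 differed between BI and medium by -3.02 ± 0.08, an 8.08-fold lower signal, which was 4th among the falls of all 12240 genes tested. The mean of its probe sets above the filter gave -1.40.

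DDIT3, whose protein CHOP pairs with C/EBP factors and is known for its part in cell death under lasting stress, was at 5.95, 6.05 and 6.17 log2 with BI, 8.92, 8.92 and 8.97 with insulin and 8.90, 9.03 and 8.93 in medium. Only the BI arrays stood apart. The difference of -2.90 ± 0.06 between BI and medium, 7.44-fold, was 5th among all falls.

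CEBPG, a dimer partner of ATF4, was at 8.71 on each BI array, at 10.60, 10.66 and 10.57 with insulin and at 10.75, 10.77 and 10.78 in medium. Its BI arrays agreed within an SD of 0.0043 and differed from medium by -2.05 ± 0.04 log2 (4.15-fold lower). CEBPB, a C/EBP factor of liver metabolism and inflammation, was at 10.45, 10.45 and 10.43 with BI, 11.10, 11.06 and 11.14 with insulin and 11.27, 11.07 and 11.18 in medium. Its difference of -0.73 ± 0.04 (1.66-fold) was smaller than that of its relative CEBPG, and its insulin and medium arrays overlapped.

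NUPR1, a small stress-induced nuclear protein, was at 9.24, 9.04 and 9.32 log2 with BI, 11.40, 11.52 and 11.37 with insulin and 11.72, 11.78 and 11.66 in medium. As with ATF3, the 3 groups did not overlap, insulin lying between the other two. BI minus medium was -2.52 ± 0.06 log2 (5.74-fold lower).

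Of the effectors, TRIB3, the pseudokinase that binds ATF4 and AKT, was at 9.35, 9.34 and 9.35 log2 with BI, 11.77, 11.85 and 11.72 with insulin and 11.92, 11.89 and 11.96 in medium. The groups did not overlap, and BI minus medium was -2.58 ± 0.04 (5.98-fold lower). SESN2, which holds back the growth kinase complex mTORC1 when leucine is short, was at 6.62, 6.48 and 6.50 with BI, 9.05, 9.16 and 9.03 with insulin and 8.98, 9.12 and 8.99 in medium. BI differed from medium by -2.49 ± 0.06 (5.63-fold), while insulin and medium overlapped.

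CHAC1, an enzyme that degrades glutathione, was at 6.69, 6.06 and 5.94 log2 with BI, 8.49, 8.57 and 8.36 with insulin and 8.43, 8.36 and 8.42 in medium. BI replicate 1 stood above the other BI arrays, also in the gene's second probe set (5.02 against 4.42 and 4.40). CHAC1 had the largest spread with BI (SD 0.40), and differed from medium by -2.17 ± 0.13 with that array and by -2.40 ± 0.07 without it. DDIT4, also named REDD1, which restrains mTORC1, was at 12.35, 12.36 and 12.40 with BI, 12.85, 12.89 and 12.96 with insulin and 12.81, 12.82 and 12.83 in medium. Its difference of -0.45 ± 0.03 between BI and medium (1.36-fold) was the smallest of the 10, and its insulin arrays all lay above its medium arrays.

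With limma and a Benjamini-Hochberg adjusted p under 0.05, all 10 genes were called lower with BI, where 25.2% of all tested genes were called lower and 25.7% higher. At least 1.5-fold lower were 9 of the 10, all but DDIT4, against 4.35% of all genes. Non-overlap with every BI array lower held for 10 of 10, against 27.7% of all genes. These counts rest on the contrast that the choice of genes used. The median difference was -2.33 over the 10 genes and 0.02 over all genes tested, and 7 of the 10 were among the 20 largest falls.

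Every probe set of the 10 genes was examined, since the gene values above come from the brightest of each. Of 21 probe sets, 17 lay above the brightness filter, and in all 17 every BI array was below every medium array. This held for 27.7% of all tested genes, and the share over all probe sets was not counted. The genes were chosen with low BI values in view, so nothing is read from this count. The filter uses the mean over all arrays, and the second probe set of CHAC1 passed it with a BI mean of 4.61, below the filter. The second probe sets of DDIT3 (-2.98), SESN2 (-2.43) and CEBPG (-1.86) differed between BI and medium by amounts near those of the first. Those of TRIB3 (-1.79) and CHAC1 (-1.06) differed by less. ATF3 had 7 probe sets, of which the brightest gave -3.02 and 2 others above the filter gave -0.75 and -0.43. The 4 dim ones lay between -0.45 and 0.08, so the size of the ATF3 difference rests on 1 probe set. ATF4, CEBPB and DDIT3 were read only by probe sets whose names mark possible cross-hybridization, and ATF4, CEBPB, DDIT4 and NUPR1 had 1 probe set each.

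**Figure D2:**
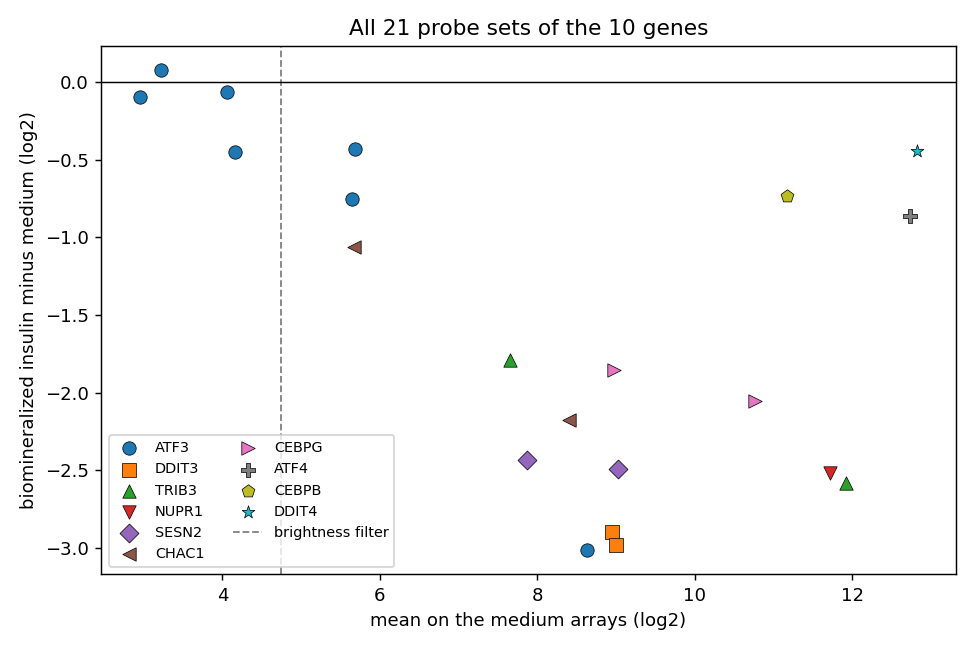
Difference between biomineralized insulin and medium (log2, vertical axis) against the mean on the medium arrays (log2, horizontal axis) for each of the 21 probe sets, marked by gene, with the brightness filter of 4.74 as a dashed line. The 17 probe sets right of the line lie below 0, and those of ATF3 spread between -3.02 and 0.08.

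Directions here are relative to the median of all genes, because the deposited arrays have like medians. Added control transcripts differed between the groups. Poly-A spike-ins, bacterial transcripts added to the RNA during labelling, averaged 7.62 ± 0.16 log2 on BI arrays against 7.22 ± 0.07 on medium arrays (SD, n = 3 each; exact permutation p = 0.1, two-sided, with no smaller value possible for 3 against 3 arrays). Centring on these controls shifted the median over all genes by -0.40 log2 and put the largest of the 10 differences at -3.42. Such a shift can only lower differences that are already below 0, so it is no check of them. The part of RNA amount in the differences was not tested.

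Compared with insulin at the same dose, the genes with large differences from medium again differed most with BI. DDIT3 differed by -2.88 ± 0.06 log2, ATF3 by -2.72 ± 0.08, SESN2 by -2.54 ± 0.06 and TRIB3 by -2.44 ± 0.04. CHAC1 (-2.24 ± 0.13), NUPR1 (-2.23 ± 0.06) and CEBPG (-1.90 ± 0.04) followed. ATF4 (-0.85 ± 0.03), CEBPB (-0.66 ± 0.04) and DDIT4 (-0.53 ± 0.03) differed least. All 10 were called lower, where 23.3% of all genes were called lower and 21.1% higher, 9 were at least 1.5-fold lower, against 3.59%, and in all 10 every BI array lay below every insulin array, against 26.3%. These differences share the BI arrays with those from medium, whose low values the choice of genes used, so nothing is read from these counts either. With BI the poly-A spike-ins were 0.39 log2 brighter than with insulin (exact p = 0.1).

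Insulin against medium asks what soluble insulin did in the same genes, and the differences were small. NUPR1 was at -0.29 ± 0.06 log2, ATF3 at -0.30 ± 0.08, CEBPG at -0.15 ± 0.04 and TRIB3 at -0.14 ± 0.04, each with every insulin array below every medium array. Such non-overlap was found for these 4 of the 10 genes and for 9.1% of all genes. CEBPB (-0.08), ATF4 (-0.02), DDIT3 (-0.01), SESN2 (0.05) and CHAC1 (0.07) had overlapping groups, and DDIT4 was at 0.08 ± 0.03 with all insulin arrays above. NUPR1, CEBPG and TRIB3 were called lower, 3 of 10, where 1.2% of all genes were called lower and 1.25% higher. This comparison shares the medium arrays with the contrast that the choice of genes used, so nothing is read from these counts. TRIB3 lost its call under 19 alternatives, CEBPG under 12 and NUPR1 under 6, and 0 of the 3 calls held after spike-in centring or without the intensity trend. No member was called when medium replicate 2, insulin replicate 1 or insulin replicate 3 was left out, and 1 was called without medium replicate 1 or 3. Insulin replicate 2 was the highest insulin array for 7 of the 10 genes and replicate 3 the lowest for 7. Actin probe sets at the 3′ end exceeded those at the 5′ end, a measure of RNA quality, by 3.19 ± 0.08 log2 with insulin and 3.02 ± 0.06 in medium (SD, n = 3 each; exact permutation p = 0.1). With BI the actin measure was 3.07 ± 0.10. For GAPDH the same measure was 0.1657 ± 0.0045 with insulin and 0.1615 ± 0.0361 in medium (exact permutation p = 0.8). The part of RNA quality in these small differences was not tested.

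**Figure D3:**
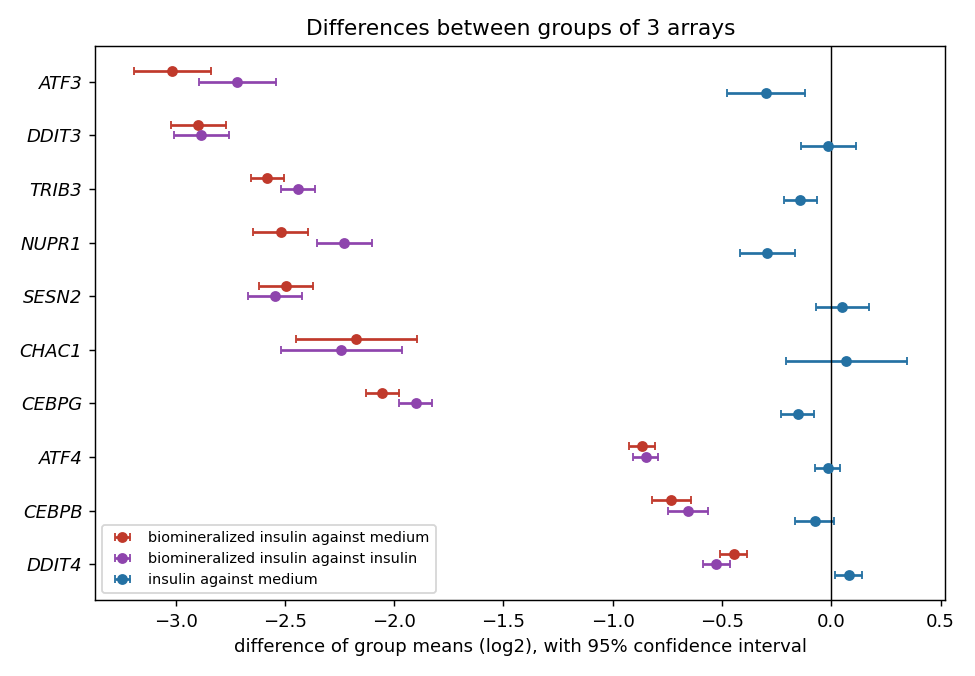
Difference of group means (log2, horizontal axis) of the 10 genes with 95% confidence intervals from the fit, for biomineralized insulin against medium, biomineralized insulin against insulin and insulin against medium. The first 2 sets of points lie between -3.02 and -0.45, and those of insulin against medium between -0.30 and 0.08.

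The other genes of the pathway were followed in 6 lists and put through the same fit with adjustment over all genes. The lists were chosen with earlier results of these arrays known, so their p-values and counts are a description in every comparison. They are no independent test. Of 41 measured ATF4-dependent genes outside the 10, 38 fell with BI against medium, 1 rose and 2 were not called, where 25.2% of all genes fell and 25.7% rose. The median was -1.02 log2 against 0.02 over all genes. SLC7A11, the cystine transporter, was at 7.97 ± 0.04 log2 with BI and 11.15 ± 0.02 in medium, a fall by 3.18 ± 0.04 (adjusted p = 1.4e-18), although its weakest probe set gave -0.80. ASNS, the enzyme that makes asparagine, fell by 2.59 ± 0.04 (adjusted p = 1.6e-17), and CTH, which makes cysteine, fell by 2.22 ± 0.04 (adjusted p = 5.0e-16). INHBE, an activin subunit gene, was at 4.32 ± 0.22 with BI, below the filter, and 9.60 ± 0.07 in medium. Its signal was at least 29.1-fold lower against the filter level, which is not a measured background. FGF21, also among the 38 and named after its values were seen, was at 3.78 ± 0.68 with BI and 7.52 ± 0.17 in medium. INHBE and FGF21 passed the filter only through their insulin and medium arrays, so nothing is read from their place among the 38.

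The exceptions in this list, named after their values were seen, were ALDH18A1, a proline synthesis enzyme that rose by 0.36 ± 0.04 (adjusted p = 2.6e-06), and 2 genes that were not called. KLHL24 was at -0.12 (adjusted p = 0.22), with its other probe sets down to -0.52, and was called lower under 4 alternatives (adjusted p of 1.5e-05 to 4.1e-05), among them the mean of its probe sets. ADM2 was at 0.10 (adjusted p = 0.28), with its other probe set at -0.58, and the mean of both gave -0.24 (adjusted p = 0.034). After spike-in centring ALDH18A1 was at -0.04. Under insulin, 21 of the 41 fell against medium and none rose, where 1.2% of all genes fell and 1.25% rose, with a median of -0.17, among them ASNS (-0.31 ± 0.04, adjusted p = 0.0019) and CTH (-0.18 ± 0.04, adjusted p = 0.033). At an unadjusted p under 0.05, 31 were lower and 2 higher, beside 1928 of all 12240 genes in either direction. The adjusted count of 21 dropped to 10 when medium replicate 2 was left out and to 11 when insulin replicate 3 was, and it was 6 without the intensity trend and 3 after spike-in centring. CTH lost its call under 11 alternatives, among them the removal of any insulin array or of medium replicate 1 or 2. Between BI and insulin, 38 fell and 1 rose, where 23.3% of all genes fell and 21.1% rose.

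Of 7 genes tied to CHOP in cell death and endoplasmic reticulum oxidation, 4 were lower with BI than in medium, 1 was higher and 2 were not called, beside 25.2% lower and 25.7% higher over all genes. GADD45A, a growth arrest gene, fell by 2.35 ± 0.04 log2 (adjusted p = 3.6e-16) and PMAIP1, whose protein NOXA promotes apoptosis, fell by 2.04 ± 0.05 (adjusted p = 3.3e-14). TNFRSF10B, a death receptor gene, fell by 0.39 ± 0.03 (adjusted p = 4.8e-08), and BBC3, whose protein is PUMA, fell by 0.35 ± 0.11 (adjusted p = 0.015, and 0.067, 0.070 and 0.099 without medium replicate 2, BI replicate 2 and BI replicate 3). BCL2, which protects from apoptosis, rose by 0.23 ± 0.09 (adjusted p = 0.046), a call lost under 16 alternatives and at -0.18 after spike-in centring. ERO1A, an oxidase of the endoplasmic reticulum, was at 0.10 (adjusted p = 0.16), but was called higher under 4 alternatives (adjusted p of 0.00082 to 0.048) and lower after spike-in centring (-0.30). BCL2L11 was at 0.12 (adjusted p = 0.16, with 2 of 6 probe sets of opposite sign). With insulin GADD45A fell by 0.31 ± 0.04 (adjusted p = 0.0023, and 0.47 after spike-in centring). The other 6 were not called, although TNFRSF10B was with array weights (adjusted p = 0.028). Over all genes 1.2% were called lower with insulin and 1.25% higher.

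Other basic leucine zipper factors, the family of ATF4 and CHOP, numbered 27 measured genes, of which 11 fell with BI against medium, 5 rose and 11 were not called, with a median of -0.04. Over all genes 25.2% fell and 25.7% rose. NFIL3, a circadian repressor, fell by 1.37 ± 0.05 log2 (adjusted p = 4.4e-12). XBP1, which carries the endoplasmic reticulum response of IRE1, fell by 1.07 ± 0.05 (adjusted p = 1.2e-11), and JDP2, an AP-1 repressor, fell by 1.04 ± 0.07 (adjusted p = 3.0e-09). TEF, a circadian activator, rose by 1.36 ± 0.08 (adjusted p = 4.3e-10), but its other probe set was at -0.03. ATF5, named after its values were seen because its messenger RNA is also translated under stress, rose by 0.36 ± 0.06 (adjusted p = 5.4e-05), with 4 probe sets between 0.30 and 0.38, and was at -0.04 after spike-in centring. With insulin 3 of the 27 fell, MAFG, NFE2L1 and XBP1, where 1.2% of all genes fell and 1.25% rose. None of these calls held without medium replicate 2, insulin replicate 1 or insulin replicate 3.

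Of 19 genes of eIF2 and its control, kinases and phosphatase subunits among them, 7 fell, 7 rose and 5 were not called. The median was 0.01, beside 25.2% lower and 25.7% higher over all genes. EIF2AK4, the amino acid sensing kinase GCN2, rose by 0.59 ± 0.07 log2 (adjusted p = 1.3e-06), and EIF2S1, the eIF2 subunit that is phosphorylated, by 0.30 ± 0.04 (adjusted p = 3.0e-06). After spike-in centring these were at 0.18 and -0.11, neither called. PPP1R15B, a subunit of the phosphatase that reverses the phosphorylation, fell by 0.63 ± 0.04 (adjusted p = 6.7e-09). PPP1R15A, its stress-induced counterpart GADD34, named after its values were seen, fell by 0.58 ± 0.08 (adjusted p = 8.0e-06). EIF2S2 fell by 0.66 ± 0.04 (adjusted p = 5.5e-10), although 1 probe set of its 3 was at 0.10. With insulin 0 of the 19 were called by limma, where 1.2% of all genes were called lower and 1.25% higher. At an unadjusted p under 0.05, 5 of the list were lower and 2 higher, beside 1928 of all 12240 genes in either direction.

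Chaperone and degradation genes of the endoplasmic reticulum, driven by ATF6 and XBP1, had 4 of 17 lower, 5 higher and 8 not called, shares near the 25.2% lower and 25.7% higher of all genes, and a median of 0.00. HERPUD1, a degradation factor also known as an ATF4 target, fell by 1.17 ± 0.04 log2 (adjusted p = 2.1e-13). MANF, a secreted stress protein, rose by 0.57 ± 0.03 (adjusted p = 2.6e-10), PDIA4, a disulfide isomerase, by 0.17 ± 0.04 (adjusted p = 0.0020) and EDEM1 by 0.24 ± 0.04 (adjusted p = 6.7e-05), the last with 2 of 4 probe sets of opposite sign. After spike-in centring PDIA4 was at -0.24 and EDEM1 at -0.16, and MANF was not called. HSPA5, the chaperone BiP and the usual readout of endoplasmic reticulum stress, named after its values were seen, was at 12.47 ± 0.09 with BI and 12.47 ± 0.03 in medium (adjusted p = 0.95). Its 6 probe sets lay between -0.33 and 0.08, and the mean of them gave -0.16 (adjusted p = 0.012), so its call depended on the probe set used. With insulin MANF rose by 0.20 ± 0.03 (adjusted p = 0.0043), a call lost after spike-in centring (adjusted p = 0.9999) and without the intensity trend (adjusted p = 0.067). No other gene of the 17 was called, where 1.2% of all genes were called lower and 1.25% higher.

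**Figure D4:**
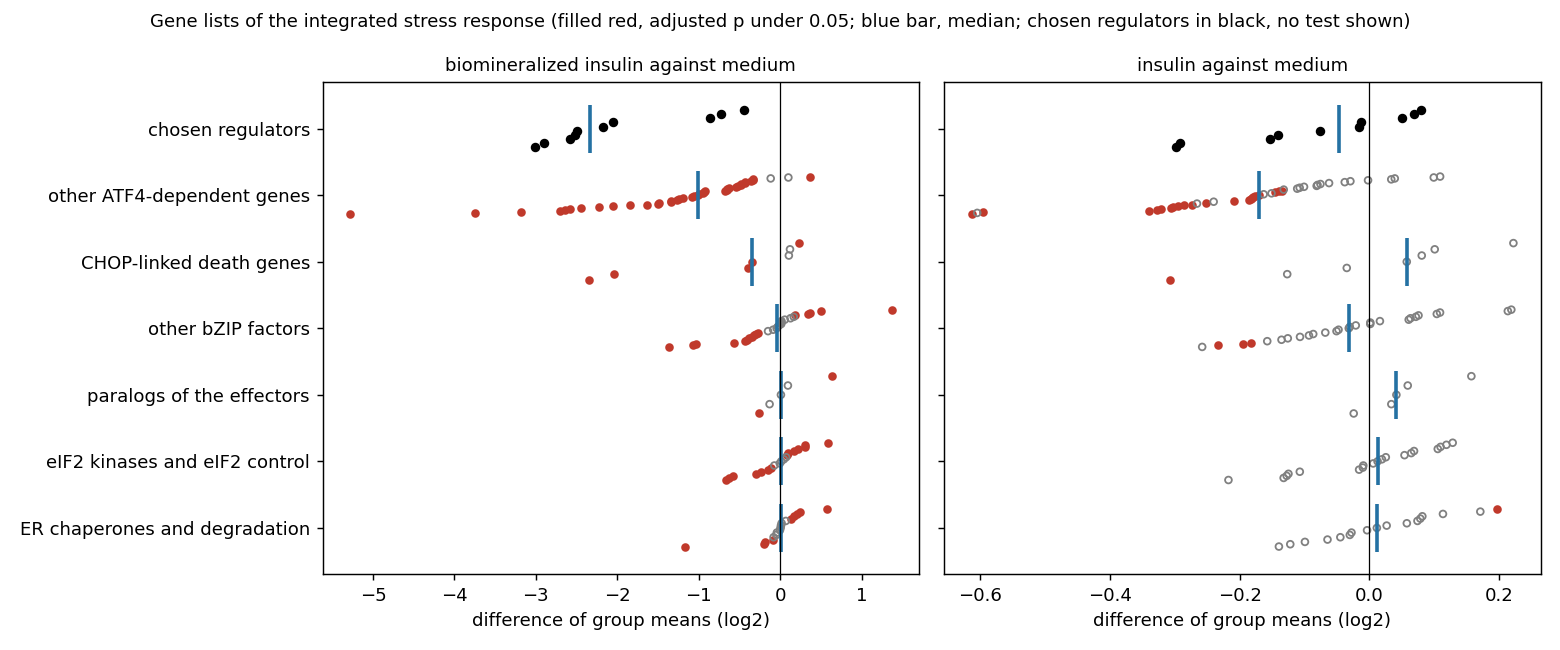
Difference of group means (log2, horizontal axis) of each gene in the 6 lists and of the 10 chosen regulators, for biomineralized insulin against medium (left) and insulin against medium (right, narrower scale). List genes past an adjusted p of 0.05 are filled red points and other list genes open points. The 10 chosen regulators are black points with no test shown, and blue bars mark medians. In the left panel the other ATF4-dependent genes have a median of -1.02, while those of the eIF2 and chaperone lists are 0.01 and 0.00.

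Paralogs of the effectors were measured for 5 of 7 genes, of which 1 fell, 1 rose and 3 were not called, beside 25.2% lower and 25.7% higher over all genes. SESN1 rose by 0.64 ± 0.06 log2 (adjusted p = 3.2e-07), while its relative SESN2 was at -2.49. NUPR2 fell by 0.26 ± 0.10 (adjusted p = 0.045), a call lost under 11 alternatives, the removal of any medium array among them. CHAC2 was at -0.13 (adjusted p = 0.053) and was called lower under 7 alternatives, among them the replicate block and median centring. TRIB1 was at 0.09 (adjusted p = 0.14) and TRIB2 at 0.01 (adjusted p = 0.96), where CHAC1 and TRIB3 were at -2.17 and -2.58. TRIB1 was called higher under quantile normalization (adjusted p = 0.034). After spike-in centring TRIB1 (-0.31, adjusted p = 0.0059) and TRIB2 (-0.40, adjusted p = 0.0038) were called lower. The differences between paralogs were not tested. The other 2, SESN3 and DDIT4L, were too dim to test.

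The genes outside the 10 with the profile most like ATF4 over the 9 arrays, by the root-mean-square distance of centred log2 values, were NCOA7 (0.033), KLF9 (0.034), FOXO1 (0.039), RMI2 (0.042) and ZCCHC8 (0.043), with Pearson r of 0.994 to 0.997. Those nearest to DDIT3 were SLC7A11 (0.127), ECM2 (0.157), STC2 (0.162), IL1A (0.187) and PCK2 (0.251), with r of 0.991 to 0.999. All 9 arrays lie in 3 groups, so these values mainly reflect the step between BI and the rest. SLC7A11, STC2 and PCK2 are on the list of ATF4-dependent genes, and none of the 5 nearest to ATF4 is.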

How the data were processed

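Messenger RNA of 9 samples was measured on one-colour Affymetrix 3′ arrays, after TRIzol extraction and 3′ in vitro transcription labelling, per the labels' protocols. The deposited table holds 1 log2 value per probe set and array, judged from its span (2.02 to 14.3) and the like medians of its columns. The authors' summarisation and normalization are not given in the sources used here. Detection calls were not used, and the number of arrays limits the precision. The 10 genes and all gene lists were chosen with earlier results of these data known.

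Groups came from sample titles. Of the probe sets, 44988 had 1 gene symbol, 1832 several, 2473 none listed and 102 were controls; 44961 symbols were updated through Entrez identifiers with RefSeq GRCh38.p14. The dimmest 40% by mean (below 4.74 log2) were left out, and a gene was represented by its brightest probe set with 1 symbol, which gave 12240 genes. All arrays entered 1 limma model (limma 3.58.1, R 4.3.3, intensity trend, 6 residual degrees of freedom) with 3 contrasts and Benjamini-Hochberg adjustment over all genes. Array controls were compared with exact permutation tests (scipy 1.17.1). The fit was checked on simulated data.

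Named besides the 10 genes are up to 4 genes of each list with the lowest p among those called in BI against medium, every gene of lists of 7 or fewer, and the 5 nearest in profile to ATF4 and to DDIT3. ATF5, PPP1R15A, ALDH18A1, KLHL24, ADM2, HSPA5, MAFG, NFE2L1 and FGF21 were named after their values were seen. Same-numbered arrays did not deviate together (correlations of -0.23 to 0.17, 1 of 9 over 0.1), so numbers were not taken to pair arrays. Some marker genes are not reported here. Alternatives changed the normalization, an offset, the filter, the probe set, the variance model, array weights, the threshold, the arrays entering the fit, each array left out, and a replicate block.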

Additional observations from a re-analysis of the deposited data

Results flagged for a closer look

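Poly-A spike-in controls, which enter none of the comparisons of genes, were brighter on the arrays of BI than on those of medium by 0.404 log2 and than on those of insulin by 0.386 log2. With exact permutation tests both gave p = 0.1, the smallest that 3 arrays against 3 allow. Insulin and medium differed in them by 0.018 log2 (exact permutation p = 0.6).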

How the results depend on the processing

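In BI against medium and in BI against insulin, no alternative moved a gene of the 10 that it could test across 0 or the threshold. The choice of genes for low BI values makes this no sign of stability. ATF4, DDIT3 and CEBPB had no probe set left when cross-hybridizing ones were dropped, so 7 genes were called lower there. In insulin against medium, 184 of 227 pairs of a gene and an alternative stayed on their side of the threshold. A call was lost in 37 (CEBPG, TRIB3 and NUPR1) and gained in 6 (ATF3). The uncalled differences of DDIT3 (-0.11 to 0.03) and SESN2 (-0.02 to 0.09) crossed 0 between alternatives. ATF3 was at -1.40 log2 against medium and -1.13 against insulin with the mean of its probe sets.

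In insulin against medium 300 genes changed. This became 152 when BI arrays were left out of the fit, 197 after median centring, 7 after spike-in centring, 177 with each gene's most variable probe set, 199 when cross-hybridizing probe sets were dropped, 37 without the intensity trend, 604 with array weights, 66 at an adjusted p under 0.01, and 57 to 425 when single arrays were left out. Of the 10 genes, 3 were called lower there, against 0 with spike-in centring, without the trend or at 0.01, 1 with the most variable probe set, and 0 to 3 without single arrays. The other pathway genes changed numbered 26, against 3, 7 and 14 with spike-in centring, without the trend and at 0.01, and 12 to 29 without single arrays. With spike-in centring, 9393 genes in place of 6230 changed in BI against medium (273 higher, 9120 lower) and 9611 in place of 5433 in BI against insulin (165 higher, 9446 lower).

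Spike-in centring turned the direction in BI against medium of EIF2S1 (-0.11), PDIA4 (-0.24), EDEM1 (-0.16), TRIB1 (-0.31), TRIB2 (-0.40), ERO1A (-0.30), BCL2L11 (-0.29), BCL2 (-0.18), ATF5 (-0.041), ALDH18A1 (-0.040), ADM2 (-0.31) and HSPA5 (-0.40). In BI against insulin it turned EIF2S1 (-0.080), PDIA4 (-0.25), MANF (-0.0096), EDEM1 (-0.22), ERO1A (-0.34), BCL2L11 (-0.35), ALDH18A1 (-0.020) and ADM2 (-0.26). This follows from its shift of all genes by -0.40 and -0.39 log2. Against medium, ADM2 was at -0.24 with the mean of probe sets and -0.58 with the most variable one, and HSPA5 at -0.16 and -0.33, and at -0.20 when cross-hybridizing probe sets were dropped. Against insulin ADM2 was at -0.34 and -0.81, and BCL2L11 at -0.30 with the most variable one. These genes' probe sets disagree.

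Same-numbered arrays share only a number. With the replicate block 226 of 12240 genes changed in insulin against medium, 6082 in BI against medium and 5302 in BI against insulin. Of the 10 genes, 2, 10 and 10 were called lower. The share of all genes called lower was not counted under this block, and nothing is read from these counts.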
